A study of Mus musculus with 8 samples.

Results

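The cholesterol synthesis genes followed here in a kidney RNA-seq table of diabetic mice were 8 of its 55401 genes: *Hmgcs1*, *Idi1*, *Fdps*, *Sqle*, *Lss*, *Cyp51*, *Srebf2* and *Insig1*. They were taken by name as genes of the cholesterol synthesis pathway, a choice made with earlier results of these data known, and each name had 1 entry. Of these, 6 encode enzymes of the pathway, *Srebf2* encodes the transcription factor SREBP-2, and *Insig1* encodes a protein that holds SREBP-2 inactive. The 8 genes include no lipoprotein receptor, so that LDL uptake is represented below by a separate list of other genes. All 8 genes passed the filter on low values (0.5 FPKM in at least 4 libraries), as did 15150 genes in all.

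The study asked how a recombinant FGF4 alters gene expression in the diabetic kidney. Poly(A) RNA was sequenced from 8 kidneys with 1 library per mouse, 4 from mice given rFGF4 (numbered 1, 2, 3 and 5) and 4 from mice given the PBS vehicle (numbered 2, 3, 4 and 5). rFGF4 is a non-mitogenic, truncated human FGF4. The regimen given by the study for male mice was an intraperitoneal injection of 1 mg/kg on alternate days over 8 weeks, and treatment began when the mice were 12 weeks old. All mice of both groups were diabetic, and no non-diabetic kidney was analysed here. The sample labels name db/db mice, an obese strain with inherited diabetes, whereas the study's account of its sequencing names mice made diabetic with streptozotocin. Which of these models the libraries came from could not be settled from the table, and RNA from tissue cannot separate fewer cells of a type from less RNA per cell. The labels name the kidney as the source. The study names the renal cortex for the RNA of its PCR assays, and which part of the kidney was sequenced is not given in the sources used here.

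Cells make cholesterol from acetyl-CoA. The early enzymes build mevalonate and the isoprene units, the middle enzymes join these into squalene, and the late enzymes close the rings and trim lanosterol to cholesterol. SREBP-2 is made as an inactive protein of the endoplasmic reticulum. When sterols are low, its escort Scap carries it to the Golgi, where it is cut free to enter the nucleus and turn on the genes of the pathway, often together with the factors NF-Y and Sp1. When sterols are high, Insig proteins retain the Scap-SREBP complex, and *Insig1* is itself a target of SREBP-2. In the kidney, the pathway supplies the membranes of tubular cells and podocytes.

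The libraries differed in ways that bear on all genes. The values were FPKM (fragments per kilobase of transcript, normalised to the mapped fragments of the library), which are per length and can be compared between genes. The table held no read counts and the depth was therefore unknown, although the smallest steps in low values put the relative depth of the other 7 libraries at 0.905 to 1.12 times that of vehicle mouse 2. Transcripts of mitochondrial genes made up 19.0% (rFGF4 mouse 1) to 38.4% (vehicle mouse 2) of the summed FPKM. rFGF4 mouse 1 held the highest value of the 8 mice for 48.1% of all tested genes, and its 9 markers of nephron segments and podocytes summed to 1243 FPKM against 1616 to 2452 FPKM in the other 7 mice. The kidney markers were thus present in every library. Because of such differences, each result was also computed after scaling every library by the median ratio of its genes, which moved the median log2 fold change (rFGF4 minus vehicle) of all genes from 0.09 to -0.01.

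The promoters of 3 genes are shown, *Insig1* and *Lss* because they stood out in a single mouse and *Hmgcs1* because it had the largest difference between the groups. The RefSeq promoter table (GRCm38.p6, 250 bases before to 50 bases after each start) matched 6 of the 8 genes, and *Sqle* and *Fdps* had no entry. The stretches upstream of the transcripts are printed 5′ to 3′ on the plus strand, which is the strand of all 3 genes, with matches to the motifs CCAAT (NF-Y), GGGCGG (Sp1) and TCACNCCAC (core of a sterol regulatory element) on either strand in capitals.
Hmgcs1 (chr13:119690101-119690350): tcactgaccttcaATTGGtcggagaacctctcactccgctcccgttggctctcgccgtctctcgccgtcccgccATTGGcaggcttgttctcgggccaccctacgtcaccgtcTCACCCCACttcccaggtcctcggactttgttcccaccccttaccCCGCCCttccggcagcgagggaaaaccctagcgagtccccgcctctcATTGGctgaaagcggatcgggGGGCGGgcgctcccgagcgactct
Insig1 (chr5:28071162-28071362): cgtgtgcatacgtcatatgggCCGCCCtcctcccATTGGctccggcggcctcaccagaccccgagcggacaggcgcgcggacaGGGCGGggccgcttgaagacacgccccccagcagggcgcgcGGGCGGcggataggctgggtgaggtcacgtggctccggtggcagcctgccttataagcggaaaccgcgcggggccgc
Lss (chr10:76531355-76531587): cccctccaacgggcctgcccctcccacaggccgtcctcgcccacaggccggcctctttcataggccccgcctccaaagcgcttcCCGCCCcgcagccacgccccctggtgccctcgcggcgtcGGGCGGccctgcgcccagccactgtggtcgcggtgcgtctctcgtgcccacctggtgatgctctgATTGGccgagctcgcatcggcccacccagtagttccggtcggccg
The sterol element core was found in *Hmgcs1* alone among the 6 windows, as TCACCCCAC from base -137 to -129 counted from the start, and in 1.24% of all 32851 windows of the same length. All 6 windows (*Hmgcs1*, *Idi1*, *Lss*, *Cyp51*, *Srebf2* and *Insig1*) held CCAAT and all 6 held GGGCGG, against 37.4% and 35.7% of all windows. Among the 16 windows of 13 other sterol enzymes, 75.0% held CCAAT and 75.0% held GGGCGG. The 3 motifs share no letters that would make one a match of another. A match is only a match of letters, and a window without the core says nothing about binding by SREBP-2.

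No difference between rFGF4- and vehicle-treated kidneys was detected for any of the 8 genes. Of the 8 estimates, 7 were below 0 (lower with rFGF4) and 1 was above 0. Their median was -0.16 on the log2 scale, against 0.09 over all tested genes, of which 32.9% were below 0. At the threshold used by the study (a 1.5-fold rise or a fall to 0.67 of the vehicle level, with an unadjusted p under 0.05), 0 of 8 genes passed. Of all tested genes, 1.52% did (231 genes), 1.09% as higher (165) and 0.436% as lower (66), a split that became 93 higher and 82 lower after scaling. By the unadjusted p under 0.05 alone, 0 of 8 passed, against 4.62% of all genes, of which 3.56% were higher and 1.06% were lower. The groups overlapped for each of the 8 genes, whereas they did not for 3.33% of all genes. After adjustment over all tested genes (limma, Benjamini-Hochberg), the smallest adjusted p was 0.920 among the 8 genes and 0.918 among all genes, and 0 of 15150 genes had an adjusted p under 0.05. With 4 mice per group, the exact permutation test can give no p below 0.0286.

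**Figure D1:**
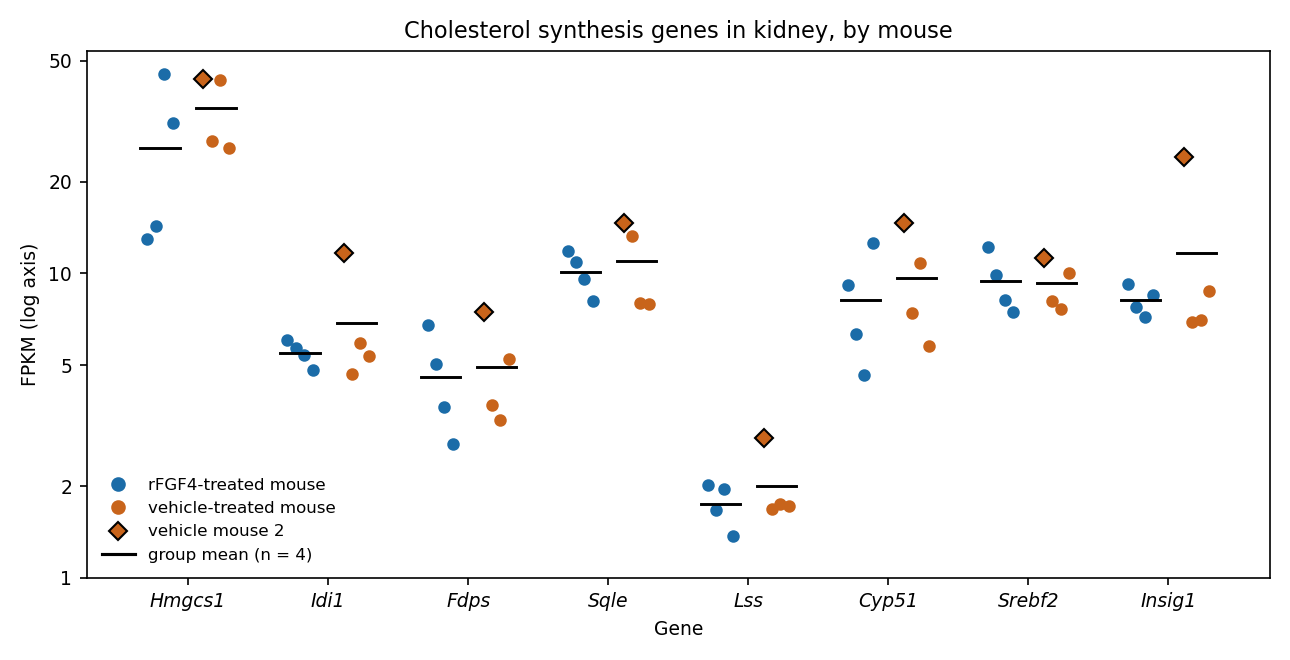
FPKM of the 8 cholesterol synthesis genes in each kidney (log axis), with rFGF4-treated mice in blue, vehicle-treated mice in orange, vehicle mouse 2 as a diamond and group means as bars. The groups overlap for every gene, and vehicle mouse 2 is the highest mouse for 6 of the 8 genes, at 24.0 FPKM for *Insig1*.

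*Hmgcs1* encodes the synthase that condenses acetyl-CoA with acetoacetyl-CoA to HMG-CoA, the substrate from which mevalonate is made. The gene lies on chromosome 13 (GRCm38, 119690379 to 119708260, plus strand, ENSMUSG00000093930). Its FPKM in rFGF4 mice 1, 2, 3 and 5 were 13.0, 14.3, 45.3 and 31.2, and in vehicle mice 2, 3, 4 and 5 they were 43.5, 27.3, 43.1 and 25.9. The 2 lowest kidneys were both rFGF4-treated, but so was the highest. Means were 25.9 ± 15.3 FPKM with rFGF4 and 34.9 ± 9.67 FPKM with vehicle (SD, n = 4), a log2 fold change of -0.56 (SE 0.40, 95% interval -1.48 to 0.37, limma adjusted p = 0.920, exact permutation p = 0.343). This was the largest difference of the 8 genes, and the spread within the rFGF4 group was wider than the difference. Without rFGF4 mouse 3 the estimate was -0.88 with an unadjusted limma p of 0.0364, which was the only alternative under which any of the 8 genes passed the threshold. It was -0.30 without rFGF4 mouse 1, -0.34 without rFGF4 mouse 2 and -0.19 with the replicate number as a block.

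*Idi1* encodes the isomerase that turns one isoprene unit into its reactive partner, and *Fdps* encodes the synthase that joins these units to farnesyl diphosphate. *Idi1* (chromosome 13, 8885501 to 8892451, plus strand, ENSMUSG00000058258) was at 6.07, 5.70, 5.40 and 4.80 FPKM in rFGF4 mice 1, 2, 3 and 5 and at 11.6, 4.67, 5.91 and 5.34 FPKM in vehicle mice 2, 3, 4 and 5. The other 7 kidneys were thus close together and vehicle mouse 2 was 1.92 times the highest of them. Group means were 5.50 ± 0.534 and 6.89 ± 3.21 FPKM (SD, n = 4), and the log2 fold change was -0.21 (SE 0.24, 95% interval -0.77 to 0.35, exact permutation p = 0.714). *Fdps* (chromosome 3, 89093588 to 89101959, minus strand, ENSMUSG00000059743) was at 6.78, 5.06, 3.63 and 2.75 FPKM with rFGF4 and at 7.48, 3.70, 3.29 and 5.25 FPKM with vehicle, in the same order of mice. Both groups contained high and low kidneys, with vehicle mouse 2 the highest and rFGF4 mouse 1 next. Its log2 fold change was -0.10 (SE 0.29, 95% interval -0.76 to 0.56, exact permutation p = 0.714).

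*Sqle* encodes squalene epoxidase and *Lss* the cyclase that folds squalene epoxide into lanosterol, the first sterol of the pathway. *Sqle* (chromosome 15, 59315077 to 59331192, plus strand, ENSMUSG00000022351) was at 11.9, 10.9, 9.56 and 8.12 FPKM in rFGF4 mice 1, 2, 3 and 5 and at 14.7, 13.3, 7.98 and 7.97 FPKM in vehicle mice 2, 3, 4 and 5. The vehicle group held the 2 highest and the 2 lowest kidneys. The log2 fold change was -0.07 (SE 0.22, 95% interval -0.59 to 0.44, exact permutation p = 0.743). *Lss* (chromosome 10, 76531588 to 76557138, plus strand, ENSMUSG00000033105), the least abundant of the 8, was at 2.02, 1.67, 1.95 and 1.37 FPKM with rFGF4 and at 2.87, 1.69, 1.75 and 1.72 FPKM with vehicle. The other 3 vehicle kidneys were nearly equal and vehicle mouse 2 stood apart from them. Its log2 fold change was -0.12 (SE 0.16, 95% interval -0.48 to 0.25, exact permutation p = 0.514).

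*Cyp51* encodes the demethylase that begins the trimming of lanosterol. It lies on chromosome 5 (4081145 to 4104746, minus strand, ENSMUSG00000001467). It was at 9.18, 6.33, 4.62 and 12.6 FPKM in rFGF4 mice 1, 2, 3 and 5 and at 14.6, 7.39, 10.8 and 5.78 FPKM in vehicle mice 2, 3, 4 and 5. The values spread 3.17-fold over the 8 mice and the groups were interleaved. The log2 fold change was -0.22 (SE 0.34, exact permutation p = 0.600), and its 95% interval ran from 0.501 to 1.47 times the vehicle level of FPKM + 1. The estimate was -0.01 without rFGF4 mouse 3, -0.44 without rFGF4 mouse 5, -0.42 without vehicle mouse 5, -0.34 with scaling and -0.60 with library weights (limma unadjusted p = 0.0815).

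*Srebf2*, whose product turns on the other genes, was the steadiest of the 8 (coefficient of variation 18.9% over the 8 mice). The gene lies on chromosome 15 (82147181 to 82205379, plus strand, ENSMUSG00000022463). It was at 12.2, 9.86, 8.19 and 7.48 FPKM in rFGF4 mice 1, 2, 3 and 5 and at 11.3, 8.15, 7.64 and 10.0 FPKM in vehicle mice 2, 3, 4 and 5. The highest and the lowest kidneys were both rFGF4-treated. The log2 fold change was 0.02 (SE 0.18, 95% interval -0.40 to 0.43, exact permutation p = 0.971), so that the interval in linear terms ran from 0.760 to 1.35 times the vehicle level of FPKM + 1. The sign of this estimate turned to -0.10 after scaling.

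*Insig1*, the sterol-sensitive brake on SREBP-2, was the most variable (coefficient of variation 58.0%), through 1 mouse. It lies on chromosome 5 (28071363 to 28078662, plus strand, ENSMUSG00000045294). In rFGF4 mice 1, 2, 3 and 5 it was at 9.20, 7.79, 7.22 and 8.50 FPKM, and in vehicle mice 2, 3, 4 and 5 at 24.0, 6.95, 7.06 and 8.75 FPKM. The other 7 kidneys lay between 6.95 and 9.20 FPKM and vehicle mouse 2 was 2.61 times the highest of them. Means were 8.18 ± 0.861 FPKM with rFGF4 and 11.7 ± 8.27 FPKM with vehicle (SD, n = 4), and the vehicle mean without mouse 2 was 7.59 ± 1.01 FPKM (SD, n = 3). The log2 fold change was -0.29 (SE 0.35, 95% interval -1.09 to 0.51, exact permutation p = 0.8286), and without vehicle mouse 2 it was 0.10 (95% interval -0.24 to 0.44).

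The 95% intervals of the 8 genes show which group differences the data still allow. On the log2 scale the interval was widest for *Hmgcs1*, from 0.359 to 1.29 times the vehicle level of FPKM + 1. For *Lss* it ran from 0.715 to 1.19 times, but at the low level of this gene the added 1 FPKM narrows the scale, and with a pseudocount of 0.1 the estimate moved from -0.12 to -0.16. Exon bases of 5 genes are shared with another annotated gene, which is Gm48342 for *Hmgcs1*, Gm48574 for *Idi1*, Gm43738 for *Fdps*, 4930483K19Rik for *Lss* and *Akap9* for *Cyp51*. Reads in these shared bases cannot be assigned with certainty, since whether strand was used in the quantification is not given in the sources used here, and Gm43738 lies on the same strand as *Fdps*. *Sqle*, *Srebf2* and *Insig1* share no exon bases with another gene.

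**Figure D2:**
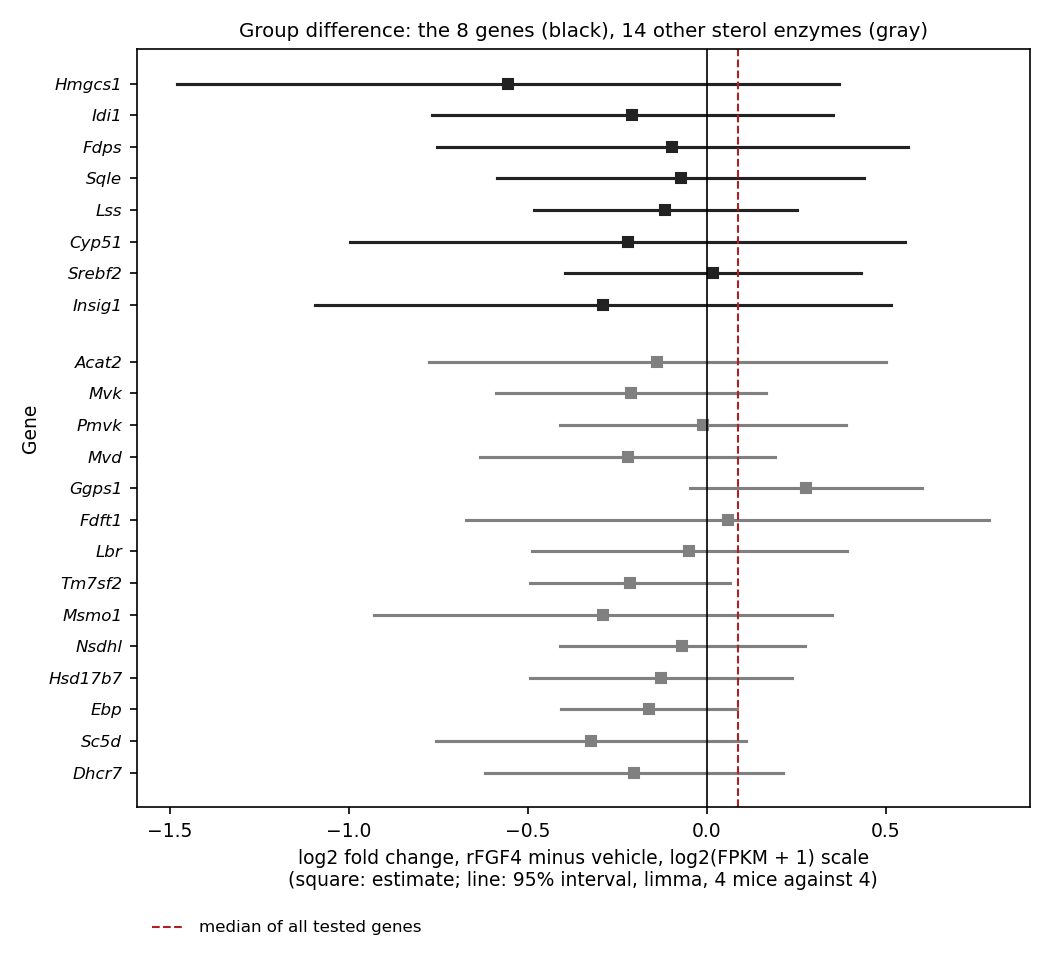
log2 fold change (rFGF4 minus vehicle, on the log2(FPKM + 1) scale, limma, 4 mice against 4) with its 95% interval for the 8 genes (black) and the 14 other sterol enzymes (gray). Every interval includes 0, and the dashed line is the median of all tested genes at 0.09.

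Compared per length over all 8 mice, *Hmgcs1* was the most abundant of the 8 at 30.4 ± 12.8 FPKM (SD, n = 8), above *Sqle* (10.6 FPKM) in 8 of 8 mice. *Sqle*, *Insig1* (9.94 FPKM), *Srebf2* (9.36 FPKM) and *Cyp51* (8.92 FPKM) followed within each other's spread, with *Sqle* above *Insig1* in 5 mice, *Insig1* above *Srebf2* in 2 and *Srebf2* above *Cyp51* in 5. *Cyp51* was above *Idi1* (6.19 FPKM) in 7 mice, *Idi1* above *Fdps* (4.74 FPKM) in 7 and *Fdps* above *Lss* (1.88 FPKM) in 8. The order of the means of *Insig1* and *Srebf2* thus ran against the order in most mice, since it rested on vehicle mouse 2.

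One vehicle-treated kidney, that of mouse 2, had high levels of most cholesterol synthesis transcripts. Vehicle mouse 2 held the highest FPKM of the 8 mice for *Idi1*, *Fdps*, *Sqle*, *Lss*, *Cyp51* and *Insig1*, and after scaling for all 8 genes. Before scaling, it held the highest value for 7.12% of all tested genes, and this share after scaling is not given. Relative to the highest of the other 7 mice, its scaled values were 2.92 times for *Insig1*, 1.97 for *Idi1*, 1.57 for *Fdps*, 1.55 for *Lss*, 1.31 for *Srebf2*, 1.21 for *Cyp51*, 1.16 for *Sqle* and 1.01 for *Hmgcs1*. The pattern was seen in this mouse after its values were examined, and it is given as a description of 1 animal.

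Other enzymes of the pathway had the same shape. Of the 14 other sterol enzymes, 10 were highest in vehicle mouse 2, which were *Acat2*, *Mvk*, *Pmvk*, *Mvd*, *Fdft1*, *Msmo1*, *Nsdhl*, *Hsd17b7*, *Sc5d* and *Dhcr7*. *Msmo1*, an oxidase that acts after *Cyp51*, was at 8.12 FPKM in this mouse and at 2.40 to 4.82 FPKM in the other 7. Its values were also 1.47 times the next highest for *Mvk*, which phosphorylates mevalonate, 1.45 times for *Fdft1*, the squalene synthase, and 1.47 times for *Dhcr7*, which acts in the last steps. They were close to the next highest for *Acat2* (1.05 times), *Nsdhl* (1.05 times) and *Pmvk* (1.11 times), and *Ggps1* was at 0.753 of the median of the other mice. Over the 20 enzymes (the 6 above and these 14), 75% were highest in vehicle mouse 2, and their median ratio to each gene's median was 1.49 against 0.924 to 1.11 in the other mice. Over all tested genes that ratio was 0.933 in this mouse. The 20 enzymes summed to 263 FPKM in vehicle mouse 2 and to 163.5 to 202.1 FPKM in the other 7.

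**Figure D3:**
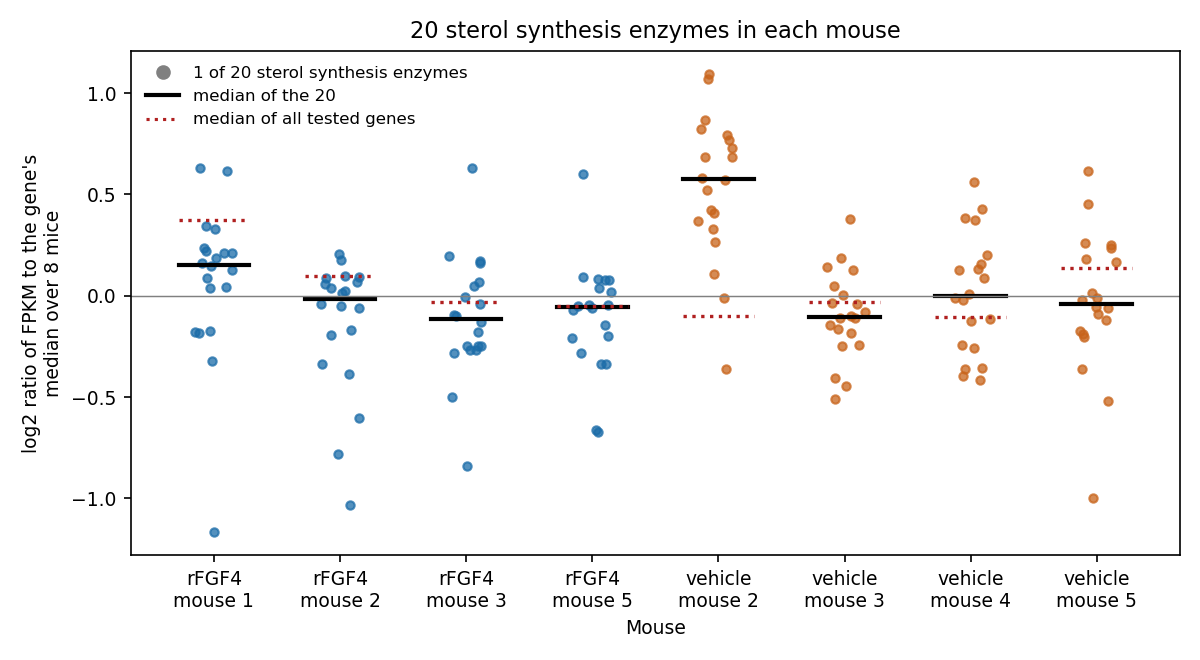
log2 ratio of FPKM to the gene's median over the 8 mice for each of 20 sterol synthesis enzymes (points), with the median of the 20 (black bar) and of all tested genes (red dotted bar) in each mouse. The median ratio of the enzymes is 1.49 (linear) in vehicle mouse 2 and 0.924 to 1.11 in the other 7 mice.

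In the other lists, fewer genes were highest in this mouse. It held the highest value for 0 of the 8 other SREBP regulators and 0 of the 7 tested efflux genes, against 7.12% of all tested genes, so that in lists of this size a count of 0 does not set them apart. For 48.1% of all tested genes the highest mouse was rFGF4 mouse 1. Of 12 uptake and transport genes, 3 were highest in vehicle mouse 2 (*Vldlr*, *Stard4* and *Tmem97*), as were 2 of 10 fatty acid synthesis genes. *Insig2*, the relative of *Insig1*, was at 9.63 FPKM in vehicle mouse 2 and at 8.68 to 11.6 FPKM in the others. *Srebf1*, which encodes the related factor for fatty acid synthesis, was at 5.70 FPKM in this mouse, 1.54 times the median of the other 7, and was highest in rFGF4 mouse 1 at 8.73 FPKM. That ratio was the same as for *Sqle* (1.54).

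Markers of other tissues were examined in the same mouse. Markers of the urothelium, the lining of the renal pelvis, were high there. Its 5 uroplakin genes summed to 32.3 FPKM, against 0.737 to 6.77 FPKM in the rFGF4 group and 1.18 to 9.88 FPKM in the other vehicle mice, and 4 of the 5 were highest in it. *Upk1a* was at 12.9 FPKM in vehicle mouse 2 and at 0.423 to 1.42 FPKM elsewhere, and *Upk2* was at 6.89 FPKM and at most at 0.728 FPKM elsewhere. The exception was *Upk3a*, at 4.39 FPKM in vehicle mouse 2 and at 5.80 FPKM in vehicle mouse 3. This list was drawn up after the value of *Upk1a* had been seen, and its part in the sterol values was not tested. The adrenal cortex, which makes steroid hormones from cholesterol and lies next to the kidney, was examined by its defining enzymes. *Cyp11b1* and *Cyp11b2* were not detected in any of the 8 libraries (deposited as 0.0001 FPKM), *Cyp11a1* and *Cyp21a1* were at most at 0.093 FPKM, and neither was detected in vehicle mouse 2. The 7 adrenal markers summed to 5.01 FPKM in vehicle mouse 2 and to 1.83 to 3.40 FPKM in the other mice, mainly through *Hsd3b1* (3.64 FPKM in vehicle mouse 2). The 6 macrophage markers summed to 28.9 FPKM in vehicle mouse 2, the lowest of the 8 mice (up to 1396 FPKM), and 6 immediate early genes summed to 14.1 FPKM (12.2 to 109.6 FPKM in the others). The parts of these and of its mitochondrial share were not tested.

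The direction of the group comparison also moved with vehicle mouse 2. Without it, 6 of the 8 estimates were above 0 and 2 were below. The median was then 0.06 on the log2 scale for the 8 genes and 0.06 for all tested genes. *Hmgcs1* and *Cyp51* remained below 0, at -0.44 (95% interval -1.49 to 0.61) and -0.01 (95% interval -0.79 to 0.77). With scaling, 8 of 8 estimates were below 0 with all mice and 5 of 8 without vehicle mouse 2 (median -0.03), and none passed an unadjusted p of 0.05.

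The 8 genes varied together between mice mostly through vehicle mouse 2. Over the 28 pairs, the median Pearson correlation of log2(FPKM + 1) across the 8 libraries was 0.55 (range -0.53 to 0.97) and 17 pairs were over 0.5. Without vehicle mouse 2 the median was -0.01 and 8 pairs were over 0.5, and with scaling and all mice it was 0.65 and 19 pairs. *Idi1* and *Insig1* correlated at 0.94 with all mice and at 0.23 without vehicle mouse 2. *Fdps* and *Srebf2* correlated at 0.97 and, without that mouse, at 0.99. *Hmgcs1* had no correlation over 0.5 and was at -0.53 with *Srebf2*, but after scaling it correlated at 0.61 with *Lss*, 0.55 with *Idi1* and 0.05 with *Srebf2*. These values share the normalisation of each library and are given as a description.

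**Figure D4:**
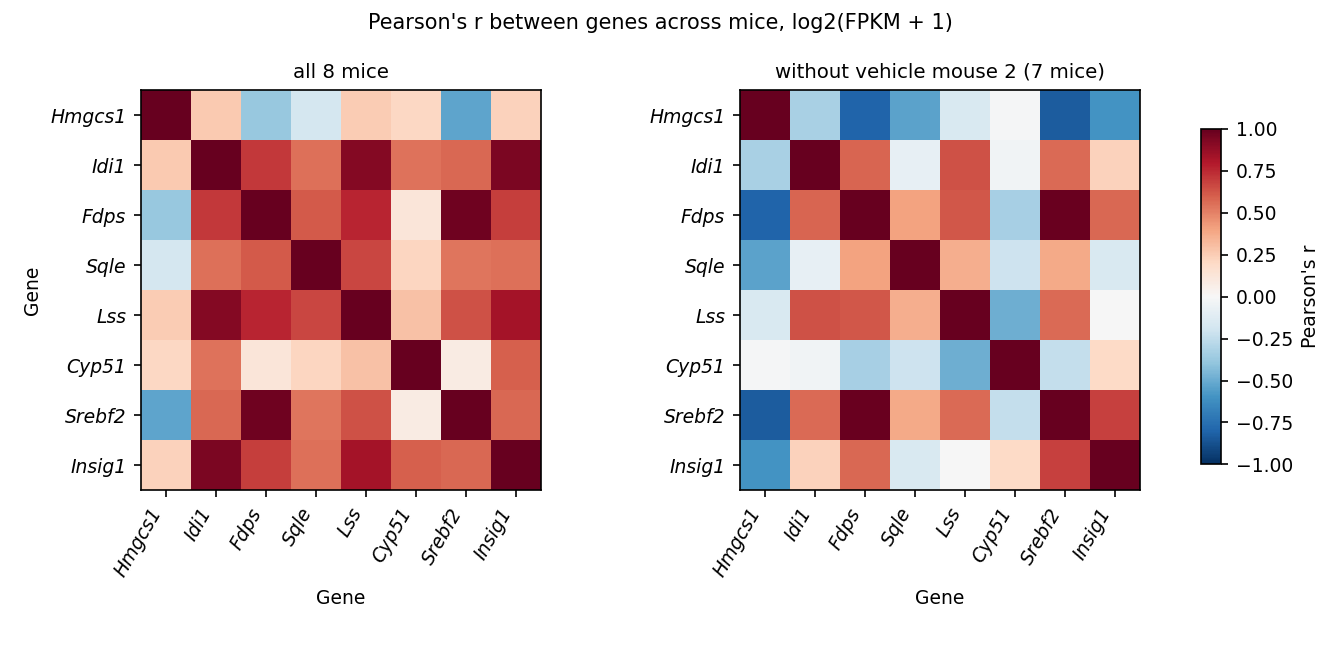
Pearson correlation of log2(FPKM + 1) between the 8 genes across all 8 mice (left) and across the 7 mice without vehicle mouse 2 (right), on a color scale from -1 to 1. The median of the 28 pairs is 0.55 on the left and -0.01 on the right, and *Fdps* with *Srebf2* is at 0.97 and 0.99.

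The 2 relations between regulators and enzymes that were tested spanned the 8 mice and used the mean log2(FPKM + 1) of the 6 enzymes. For *Srebf2*, Pearson's r was 0.38 (exact permutation p = 0.393, adjusted over both relations 0.393) and Spearman's rho was 0.17 (exact permutation p = 0.703, adjusted 0.752). For *Insig1*, r was 0.92 (exact permutation p = 0.0884, adjusted 0.177) and rho was 0.14 (exact permutation p = 0.752, adjusted 0.752). Leaving out the 2 mice farthest from the median of the regulator turned both signs, to r = -0.74 for *Srebf2* (exact permutation p = 0.0819, without rFGF4 mouse 1 and vehicle mouse 2) and r = -0.24 for *Insig1* (exact permutation p = 0.619, without vehicle mice 2 and 3). The relation of *Insig1* to the enzymes thus rested on vehicle mouse 2. The transcript of a regulator does not measure how much of its protein is active.

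Outside the 8 genes, the 5 genes most like them across mice were *Upk1a* (r = 0.95), *Msmo1* (0.93), *0610040B10Rik* (0.93), *Itgav* (0.92) and *Hinfp* (0.92), by Pearson's r of log2(FPKM + 1) with the mean z-score of the 8 genes over 8 libraries. Each was highest in vehicle mouse 2, which this choice favoured. The mean z-score of the 8 genes was 1.66 in that mouse and at most 0.308 in the others. Among the 5 genes, *Msmo1* was the only sterol enzyme. *Itgav*, an integrin subunit, was at 5.30 FPKM in vehicle mouse 2 and at 0.384 to 1.89 FPKM in the other 7 mice.

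The other genes of sterol metabolism were compared between the groups by list. Of the 14 other sterol enzymes, 2 estimates were above 0 and 12 were below (median -0.15 on the log2 scale), and 0 of 14 had an unadjusted p under 0.05. After scaling, 1 was above 0 and 13 were below (median -0.28), and 2 of 14 were lower at an unadjusted p under 0.05 (*Tm7sf2* and *Sc5d*, which act in the late steps), against 2.45% of all genes lower after the same scaling. *Ggps1*, which makes the geranylgeranyl lipid rather than sterols, had the smallest p of the list, at 4.79 ± 0.394 FPKM with rFGF4 and 3.82 ± 0.80 FPKM with vehicle (SD, n = 4, log2 fold change 0.28, SE 0.14, exact permutation p = 0.0857). *Ebp*, the isomerase of a late step and the most abundant enzyme of the list, was at 24.0 ± 1.86 and 27.0 ± 2.13 FPKM (log2 fold change -0.16, exact permutation p = 0.114).

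Of the 8 other SREBP regulators, all 8 estimates were above 0, as were 67.1% of all tested genes, with a median of 0.20, whereas after scaling 6 were above 0 and 2 below (median 0.10). Under both, 0 of 8 had an unadjusted p under 0.05. *Erlin2*, a membrane protein of sterol-regulated degradation, was the most abundant of the list and had the smallest p (log2 fold change 0.28, limma unadjusted p = 0.0633). *Insig2* was the only gene of the list whose groups did not overlap, at 9.74 to 11.6 FPKM with rFGF4 and 8.68 to 9.63 FPKM with vehicle (log2 fold change 0.21, SE 0.10, exact permutation p = 0.0286, limma adjusted p = 0.918). These values are before scaling. The highest was in rFGF4 mouse 1, whose library scaling lowers most (scale factor 1.296, against 0.907 to 1.11 in the vehicle mice). *Insig2* is named after its values were seen, and the groups did not overlap, with rFGF4 higher, for 2.66% of all tested genes.

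Of 13 genes of lipoprotein uptake and of cholesterol transport inside the cell, 12 were tested (*Lrp8* was too low), and 11 estimates were above 0 and 1 below (8 and 4 after scaling). Of these, 2 had an unadjusted p under 0.05, against 3.56% of all genes in this direction. The study's threshold, which asks for both the fold change and the p, was passed by 0. After scaling, 1 of 12 (*Mylip*) had an unadjusted p under 0.05, against 2.24% of all genes as higher. *Mylip*, a ubiquitin ligase that removes lipoprotein receptors, was at 25.0, 19.1, 17.9 and 14.3 FPKM in rFGF4 mice 1, 2, 3 and 5 and at 12.8, 13.0, 10.9 and 16.2 FPKM in vehicle mice 2, 3, 4 and 5. The kidneys of rFGF4 mice 1, 2 and 3 were above all vehicle kidneys and that of mouse 5 was not. Its log2 fold change was 0.48 (SE 0.18, limma unadjusted p = 0.0290 and adjusted p = 0.918, exact permutation p = 0.0571), and 0.27 with the replicate block (limma unadjusted p = 0.261). *Lipa*, the lysosomal lipase that frees cholesterol from lipoprotein esters, was at 27.3 ± 3.08 and 21.02 ± 4.03 FPKM (SD, n = 4, log2 fold change 0.38, SE 0.15, limma unadjusted p = 0.0393, exact permutation p = 0.0857), and after scaling its log2 fold change was 0.25 (limma unadjusted p = 0.229). *Npc2*, which carries cholesterol out of the lysosome, was at 28.0 ± 11.6 and 20.7 ± 8.45 FPKM (log2 fold change 0.40, limma unadjusted p = 0.254). Its mean over all mice was the highest of the list, but close to that of *Lipa* (24.3 and 24.2 FPKM). The log2 fold change of *Npc2* was 0.17 without rFGF4 mouse 1, 0.65 without vehicle mouse 5 and 0.093 with the replicate block.

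Of 9 genes of cholesterol efflux and its LXR factors, 7 were tested (*Abcg5* and *Abcg8* were too low), with 6 estimates above 0 and 1 below (4 and 3 after scaling). *Lpcat3*, an LXR target that remodels membrane phospholipids, was the 1 of 7 with an unadjusted p under 0.05 (3.56% of all genes in this direction), at 32.1 ± 4.71 FPKM with rFGF4 and 25.0 ± 1.86 FPKM with vehicle (SD, n = 4, log2 fold change 0.34, SE 0.13, limma unadjusted p = 0.0312, exact permutation p = 0.0571). After scaling it was 0.21 (limma unadjusted p = 0.121), and 0 of 7 had a p under 0.05.

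The 10 genes of fatty acid synthesis, the branch driven by the related factor SREBP-1, included 8 estimates above 0 and 2 below (5 and 5 after scaling). *Fasn*, the fatty acid synthase, was the 1 of 10 past the study's threshold (1.09% of all genes as higher). It was at 7.84, 7.98, 6.39 and 3.73 FPKM in rFGF4 mice 1, 2, 3 and 5 and at 4.07, 2.86, 3.19 and 4.22 FPKM in vehicle mice 2, 3, 4 and 5. Again rFGF4 mice 1, 2 and 3 were above all vehicle kidneys, and rFGF4 mouse 5 lay within the vehicle range. Its log2 fold change was 0.67 (SE 0.22, limma unadjusted p = 0.0165 and adjusted p = 0.918, exact permutation p = 0.0857). It no longer reached 1.5-fold with scaling (0.56, limma unadjusted p = 0.0145), with the replicate block (0.54) or without rFGF4 mouse 1 (0.58) or 2 (0.57). *Acly*, which makes the acetyl-CoA used by both branches, was at 31.6 ± 5.84 and 22.6 ± 2.87 FPKM (SD, n = 4, log2 fold change 0.46, limma unadjusted p = 0.0226). *Me1*, the malic enzyme and the most abundant of the list, had a log2 fold change of 0.21 (limma unadjusted p = 0.343). It was 0.36 without rFGF4 mouse 1, 0.10 without rFGF4 mouse 3, 0.095 without vehicle mouse 5, 0.087 with scaling and 0.44 with the replicate block. With scaling, 2 of 10 (*Fasn* and *Acly*) had an unadjusted p under 0.05, against 2.24% of all genes as higher.

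Markers of other kinds also differed between mice in the groups compared here. The 6 immediate early genes, which respond to tissue handling among other signals, summed to 109.6, 102.3, 76.5 and 15.4 FPKM in rFGF4 mice 1, 2, 3 and 5 and to 14.1, 26.0, 12.2 and 71.0 FPKM in vehicle mice 2, 3, 4 and 5. They were thus high in the same 3 rFGF4 mice as *Fasn* and *Mylip*, and in vehicle mouse 5. The 6 liver markers summed to 268 to 524 FPKM with rFGF4 and 173 to 286 FPKM with vehicle. Before scaling, 2 of the 4 tested passed the threshold (*Apoa1*, log2 fold change 1.18, and *Serpina1a*, 0.60), against 1.09% of all genes as higher. *Serpina1a* lay close to both limits (1.51-fold, limma unadjusted p = 0.0481). *Cyp7a1*, which defines liver, was not detected in 7 of the 8 libraries and was at 0.0136 FPKM in rFGF4 mouse 5. The 5 red blood cell genes summed to 120 to 2657 FPKM with rFGF4 and 1139 to 4325 FPKM with vehicle. Their median difference was -1.97 on the log2 scale, and 0 of 5 had an unadjusted p under 0.05. Of 5 adipose markers, *Fabp4*, a fatty acid carrier also made by endothelium, was the 1 high enough to test. It was at 6.97, 6.44, 5.69 and 13.4 FPKM in rFGF4 mice 1, 2, 3 and 5 and at 16.5, 15.3, 11.9 and 10.8 FPKM in vehicle mice 2, 3, 4 and 5, and passed the threshold as lower (log2 fold change -0.73, limma unadjusted p = 0.0207 and adjusted p = 0.918, 0.436% of all genes as lower). The same 3 rFGF4 mice were below all vehicle kidneys, whereas *Adipoq*, which defines fat cells, was at most at 0.186 FPKM, in vehicle mouse 2. The 6 lymphoid markers summed to 22415 FPKM in vehicle mouse 5, nearly all of it from the immunoglobulin gene *Igkc* (22334 FPKM), and to 23.7 to 2657 FPKM in the other mice, and 0 of the 4 tested had an unadjusted p under 0.05. The part of these in the values of the lists was not tested.
*Mylip*, *Lipa*, *Lpcat3*, *Fasn* and *Acly* each lost an unadjusted p of 0.05 under at least 1 alternative, and whether these genes differ from the 8 cholesterol synthesis genes in their response was not tested.

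**Figure D5:**
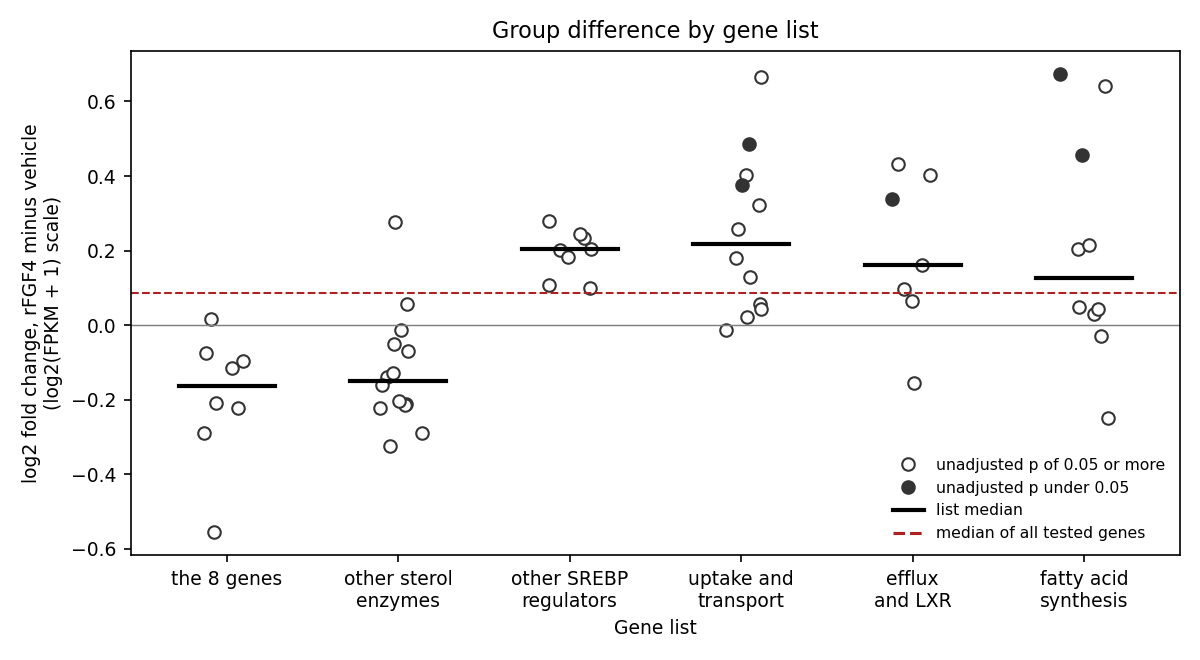
log2 fold change (rFGF4 minus vehicle, on the log2(FPKM + 1) scale) of each tested gene in 6 lists, with list medians as bars, filled points for an unadjusted limma p under 0.05 and the median of all tested genes (0.09) as a dashed line. The 8 genes and the other sterol enzymes have medians of -0.16 and -0.15, and the 5 filled points lie in the uptake, efflux and fatty acid lists.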

How the data were processed

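Poly(A) RNA-seq of mouse kidney (RNA integrity number over 7) was analysed for 4 rFGF4-treated and 4 vehicle-treated mice, grouped by the deposited labels. The authors deposited 1 table of FPKM values per gene and library. The submitters' processing notes list Bowtie 0.12.2, HISAT2 2.0, StringTie 1.3.0 and the build mm8, without their roles. The table's columns of the authors' own fold changes and p- and q-values were not used. No counts were given, so no counting intervals could be computed, and values under 0.001 FPKM, of which 99.9% were exactly 0.0001, were kept as deposited and are called not detected.

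Values were tested as log2(FPKM + 1), a scale that understates changes of low genes, with limma 3.58.1 (trend, R 4.3.3) over the 15150 genes at 0.5 FPKM or more in at least 4 libraries, with Benjamini-Hochberg adjustment, and single genes also with two-sided exact permutation tests (scipy 1.17.1). The fit was tested on simulated data first. The count-based test named by the study could not be used on FPKM. The p-values of the group comparisons set the difference of means against the spread between these libraries. In limma this spread was drawn towards a trend over all genes. Coordinates are from GENCODE M21 (GRCm38), where 99.5% of identifiers matched. Promoters are from RefSeq. Shared replicate numbers (2, 3 and 5) were not treated as pairs in the main fit. Deviations of same-numbered mice from their group means correlated at -0.23, -0.16 and -0.39. For mice with unlike numbers the range was -0.56 to 0.57, so these correlations cannot decide whether samples were paired.

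The 8 genes and all lists were chosen with earlier results of these data known. Some genes of these pathways are not reported here. From each other list, genes with an unadjusted p under 0.05, the smallest p and the highest mean FPKM were named, and the 5 genes most correlated with the 8. The tests were repeated with a pseudocount of 0.1, without the filter, with a filter of 1 FPKM in every library, with median-ratio scaling, a replicate block or library weights, and without each mouse in turn. The relations without vehicle mouse 2, and scaling combined with leaving it out, were added after the data were seen.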

Additional observations from a re-analysis of the deposited data

Results flagged for a closer look

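In 60 groups of 4 mice (the 8 genes, the other sterol enzymes and the genes named from the other lists, as log2(FPKM + 1)), the gap of the highest or lowest mouse to its nearest neighbour was set against the range of the group. In 4 groups it exceeded Dixon's 95% limit, where chance would give about 3. *Lss* in vehicle mouse 2 was at 2.87 FPKM against 1.69 to 1.75 FPKM in the other vehicle mice (gap 0.940 of the range). *Pmvk*, the kinase after mevalonate kinase, was low in rFGF4 mouse 3 at 5.76 FPKM against 8.58 to 9.25 FPKM (gap 0.838). *Ggps1* was at 5.02 FPKM in vehicle mouse 5 against 3.38 to 3.48 FPKM (gap 0.925), within the rFGF4 range. *Npc2* was at 33.3 FPKM in vehicle mouse 5 against 15.6 to 17.4 FPKM (gap 0.856). The 6 macrophage markers summed to 1396 FPKM in vehicle mouse 5, the highest of the 8 mice, and their part in the *Npc2* value was not tested.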

How the results depend on the processing

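Of the 8 cholesterol synthesis genes, 0 passed the threshold under 14 of 15 alternatives. Leaving out each mouse gave 0 to 1, and the 1 was *Hmgcs1* without rFGF4 mouse 3. Their median log2 fold change ran from -0.26 to 0.06 when single mice were left out and was above 0 without vehicle mouse 2 alone. Single signs turned for *Srebf2* to -0.10 (scaling), -0.18 (replicate block), -0.013 (library weights) and ran from -0.10 to 0.11 with 1 mouse left out (below 0 without rFGF4 mice 1 or 2 or vehicle mice 3 or 4). Leaving out 1 mouse gave -0.44 to -0.013 for *Cyp51*, -0.34 to 0.043 for *Idi1*, -0.28 to 0.093 for *Fdps*, -0.20 to 0.072 for *Sqle*, and -0.45 to 0.097 for *Insig1*. Without vehicle mouse 2 signs turned for the last 4 of these and *Lss* (-0.16 to 0.011 over the mice), and with scaling as well for *Fdps* (0.0076) and *Insig1* (0.0090). *Fdps* (0.075) and *Sqle* (0.017) also turned without rFGF4 mouse 5, and *Sqle* (0.027) without vehicle mouse 3. Over all genes, the 231 past the threshold became 348 with a pseudocount of 0.1, 490 with library weights and 187 to 575 with 1 mouse left out (575 without rFGF4 mouse 5 and 432 without vehicle mouse 5), and 0 to 2 had an adjusted p under 0.05. Scaling changed their split from 165 higher and 66 lower to 93 and 82. In the other lists, the 1 past the threshold (*Fasn*) became 0 with scaling (log2 fold change 0.56, just under 1.5-fold), 0 with the replicate block and 0 to 2 with 1 mouse left out. *Mylip*, *Lipa*, *Lpcat3*, *Acly* and *Fasn* lost their unadjusted p under 6, 8, 9, 5 and 1 of the 15 alternatives. *Erlin2* gained one with no filter (limma unadjusted p = 0.0481) and without vehicle mouse 2 (0.0382). *Ggps1* gained one with library weights (limma unadjusted p = 0.00993) and without vehicle mouse 5 (0.0135). The r of *Insig1* with the enzymes was -0.24 without the 2 mice farthest from the median (exact permutation p = 0.619) and -0.24 without vehicle mouse 2 (exact permutation p = 0.584). It was 0.92 with group means removed (exact permutation p = 0.0105, rho 0.79, p = 0.0279) and 0.89 with scaling (p = 0.0297). Both of these keep vehicle mouse 2, whose values also raised the subtracted vehicle means. They cannot show a relation without that mouse. The r of *Srebf2* was -0.74 without its 2 farthest mice and -0.16 without vehicle mouse 2, but 0.44 with group means removed and 0.65 with scaling (rho -0.19). The replicate block gave 262 genes past the threshold and a median of -0.25 for the 8 genes. The causes were not tested. With 4 mice a group and unknown depth, the printed intervals limit what can be said of single genes.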
